A study of Mus musculus with 10 samples.

Results

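The genes examined were 10 genes of muscle energy metabolism, out of 53465 genes counted in the mouse pinna at E14.5, a stage of mid-gestation. They were chosen by symbol, as the rows of the count table whose Ensembl identifiers map to *Ckm*, *Ckmt2*, *Pygm*, *Eno3*, *Pfkm*, *Pgam2*, *Cox6a2*, *Cox8b*, *Ampd1* and *Mb*. The series compared bulk RNA-seq of wild type embryos (WT) with embryos homozygous for a duplication of mEC1 (mEC1dup/dup), a mouse enhancer near *Hmx1* placed by CRISPR/Cas9 so that each allele carries an additional copy. Both groups were on a C57BL/6J background, both were labelled as that stage, and the tissue was the whole micro-dissected pinna prominence of 5 independent embryos per genotype. The number of founder lines behind mEC1dup/dup is not given in the sources used here. The comparison asks how these genes were expressed in the pinna of an embryo in which *Hmx1*, a homeobox transcription factor, carries a duplicated enhancer.

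Muscle rebuilds ATP by several routes, and each route uses proteins that muscle makes in its own isoforms. Creatine kinase moves phosphate between ATP and creatine. Glycogen phosphorylase and the enzymes of glycolysis break down sugar, muscle subunits of cytochrome c oxidase work in mitochondrial respiration, AMP deaminase belongs to the purine nucleotide cycle, and myoglobin binds oxygen. Other tissues use isoforms encoded by separate genes, such as *Ckb* for *Ckm* or *Pygb* for *Pygm*, and muscle adds its own isoforms as its fibres mature.

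Total counts ran from 17461544 to 18462073 per embryo, of which the 10 genes together took between 0.0167% and 0.0324%. *Hmx1*, the gene next to the duplicated enhancer, had 376 to 526 counts in WT and 976 to 1356 in mEC1dup/dup. Skeletal muscle was present in the tissue by its markers, with *Acta1* at 579 ± 106 CPM (reads scaled to library size by TMM, SD, n = 5) and *Myog* at 99.7 ± 20.8 CPM (SD, n = 5) in WT. The libraries also differed between genotypes in *Xist* and in embryonic globins. *Xist*, the RNA of the inactive X chromosome, had 2 to 5 counts in the WT embryos and 12812, 19040, 18165, 2096 and 0 in mEC1dup/dup replicates 1 to 5. Among the counts of the 8 globin genes listed, the 3 embryonic ones took 18.4% to 23.3% in WT and 32.6% to 35.6% in mEC1dup/dup.

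Promoter sequence from RefSeq was at hand for 8 of the 10 genes, and is shown for the 4 genes that were called lower below and had an entry, *Ckm*, *Pygm*, *Eno3* and *Pgam2*. Each run is the 250 bases before the transcription start, written 5′ to 3′ on the strand of the gene, and capitals mark every match to CANNTG, the letters of an E-box, a motif bound by basic helix-loop-helix factors such as MyoD and myogenin. The RefSeq table is of GRCm38.p6, and each sequence was placed on GRCm39 by an exact match, of which there was 1 per sequence: *Ckm* at chr7:19144769-19145018 (plus strand), *Pygm* at chr19:6434188-6434437 (plus), *Eno3* at chr11:70547752-70548001 (plus) and *Pgam2* at chr11:5753797-5754046 (minus).
Ckm: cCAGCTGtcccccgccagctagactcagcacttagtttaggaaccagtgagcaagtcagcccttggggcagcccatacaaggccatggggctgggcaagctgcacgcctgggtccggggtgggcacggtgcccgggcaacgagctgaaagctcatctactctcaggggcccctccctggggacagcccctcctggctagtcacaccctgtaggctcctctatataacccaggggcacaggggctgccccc
Pygm: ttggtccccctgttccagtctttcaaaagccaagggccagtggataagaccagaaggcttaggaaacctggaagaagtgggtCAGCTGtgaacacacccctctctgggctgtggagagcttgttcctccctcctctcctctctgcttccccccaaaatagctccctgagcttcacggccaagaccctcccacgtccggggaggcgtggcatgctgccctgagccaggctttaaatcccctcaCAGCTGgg
Eno3: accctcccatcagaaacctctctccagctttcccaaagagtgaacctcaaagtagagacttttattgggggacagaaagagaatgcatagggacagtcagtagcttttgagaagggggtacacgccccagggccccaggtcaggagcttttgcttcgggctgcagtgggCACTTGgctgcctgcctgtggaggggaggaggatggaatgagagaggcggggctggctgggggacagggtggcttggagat
Pgam2: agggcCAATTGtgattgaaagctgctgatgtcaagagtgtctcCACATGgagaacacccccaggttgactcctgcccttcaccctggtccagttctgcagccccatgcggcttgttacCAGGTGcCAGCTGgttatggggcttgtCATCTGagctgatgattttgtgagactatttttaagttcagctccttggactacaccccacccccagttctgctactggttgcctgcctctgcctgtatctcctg

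*Pgam2* held 5 matches to CANNTG in this window, *Pygm* 2, and *Ckm* and *Eno3* 1 each. The *Ckm* match and both *Pygm* matches read CAGCTG, beginning 249 bases before the start in *Ckm* and 168 and 8 bases before it in *Pygm*. The *Eno3* match reads CACTTG on the printed strand, 81 bases before the start. Of the *Pgam2* matches the one 125 bases before the start reads CAGCTG, and a match to the MEF2 consensus began 80 bases before the start. CAGCTG was not limited to genes called lower. Among genes with an entry that were not called, *Ckmt2* held it 107 bases before the start and *Cox8b* 19 bases before. *Mb* held it 133 or 193 bases before, by the start used, and *Pfkm* did not hold it. Among 32841 RefSeq promoters of this length, 66.2% held CANNTG, 13% CAGCTG and 2.92% the MEF2 consensus (both strands searched, and every CAGCTG is also a CANNTG). These are matches of letters and were not measured as binding sites.

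In mEC1dup/dup the creatine kinase of muscle showed the deepest change among the tested genes of the group, and glycogen phosphorylase, β-enolase, muscle phosphoglycerate mutase and AMP deaminase were also lower. Of the 10 genes, 9 passed the filter on low counts. In a quasi-likelihood test by edgeR, with p adjusted by Benjamini-Hochberg over 16426 genes, 5 of the 9 were lower (*Ckm*, *Pygm*, *Eno3*, *Pgam2* and *Ampd1*) and 0 were higher, where a call needs an adjusted p no larger than 0.05 and a mean level of 1 or more in log2 CPM. For comparison, 1.81% of all genes tested were lower and 0.834% higher by the same rule. At an unadjusted p under 0.05, 8 of the 9 differed, against 16.2% of all genes tested. All 9 fitted log2 fold changes were below 0, with a median of -0.73, against 51.2% of all genes tested below 0 and a median of -0.0041. In bulk tissue, fewer muscle cells and less RNA per muscle cell cannot be told apart.

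The difference in *Xist* moves with genotype, so sex and genotype cannot be fully told apart here. One mEC1dup/dup embryo, replicate 5, had no *Xist* read, beside at most 5 in WT embryos. It lay below every WT embryo for 6 of the 9 tested genes, all but *Eno3*, *Cox8b* and *Mb*, and for *Ckmt2*, against 19.9% of all genes tested. When the *Xist* level (log2 CPM) entered the fit as covariate, all 9 fitted log2 fold changes stayed below 0, *Ckm* was at -1.85 (SE 0.39, edgeR adjusted p = 0.200), *Pygm* at -0.87, *Pgam2* at -0.54, *Ampd1* at -0.85, *Eno3* at -0.36 and *Cox8b* at -0.45, and 0 of the 9 were called (4 at an unadjusted p under 0.05, against 9.34% of all genes in that fit). With the embryonic share of the globin counts in the fit, 8 of the 9 stayed below 0 and *Cox8b* was at 0.16 (SE 1.52). *Ckm* was at -2.60 (SE 1.03, edgeR adjusted p = 0.898), *Pygm* at -2.26 (SE 0.59), *Eno3* at -0.97 (SE 0.54), *Cox6a2* at -1.76 (SE 0.85) and *Mb* at -1.13 (SE 1.14). Of the 9, 0 were called (2 at an unadjusted p under 0.05, against 4.84% of all genes in that fit). Standard errors in that fit were several times larger, and *Hmx1* itself was not called in it (0.34, SE 0.38, edgeR adjusted p = 0.921). The embryonic share does not overlap between genotypes, and its part in the result cannot be told apart from genotype. Whether the genotypes differed in developmental age within the label E14.5 was not tested.

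**Figure D1:**
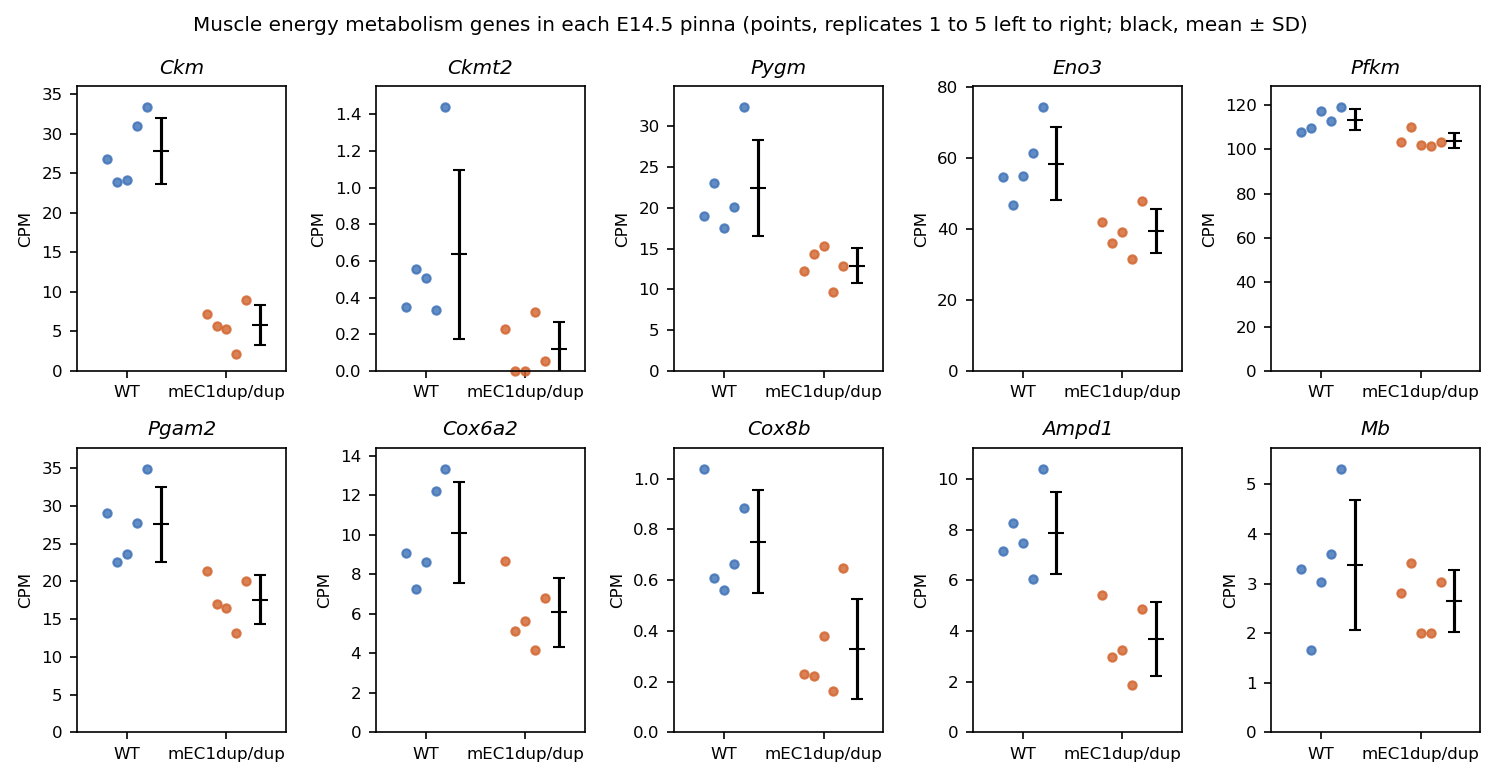
CPM (linear axis from 0) of the 10 muscle energy metabolism genes in each embryo, WT in blue and mEC1dup/dup in orange, with replicates 1 to 5 from left to right and the mean ± SD of 5 embryos in black. The mEC1dup/dup embryos lie below every WT embryo for *Ckm*, from 2.10 to 8.93 against 23.9 to 33.3 CPM, while for *Mb* the genotypes overlap.

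*Ckm* (ENSMUSG00000030399, GRCm39 chromosome 7, 19138701 to 19157965, plus strand) encodes the cytosolic creatine kinase of muscle. Counts in replicates 1 to 5 were 463, 431, 430, 558 and 602 for WT and 126, 104, 98, 39 and 165 for mEC1dup/dup. Every mEC1dup/dup embryo lay below every WT embryo, and replicate 4 was the lowest. Mean levels were 27.8 ± 4.20 CPM in WT and 5.86 ± 2.53 in mEC1dup/dup (SD, n = 5 each), so that the latter stood at 21.1% of WT. The log2 fold change was -2.25 with a standard error of 0.25 (edgeR quasi-likelihood test, Benjamini-Hochberg adjusted p = 0.00126). *Ckm* was called in each of the 10 fits that left out 1 embryo, with log2 fold changes from -2.45 to -2.03 and edgeR adjusted p from 0.00035 to 0.00901.

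*Ckmt2* (ENSMUSG00000021622) encodes the sarcomeric mitochondrial creatine kinase, which hands phosphate to creatine at the mitochondrion. Its counts were 6, 10, 9, 6 and 26 in WT and 4, 0, 0, 6 and 1 in mEC1dup/dup, in replicate order. The lowest WT embryos and the highest mEC1dup/dup embryo met at 6 counts. These counts did not pass the filter, so the gene was not part of the test. Without a filter, edgeR gave a log2 fold change of -2.33 with a standard error of 0.68 (adjusted p = 0.103). In the 2 embryos without a read, a count of 0 allows up to 3 counts, or 0.165 and 0.163 CPM, counting error only. Neither partner gene outside muscle was called. *Ckb*, the brain-type cytosolic kinase, had a log2 fold change of -0.07 with a standard error of 0.15 (edgeR adjusted p = 0.866), and *Ckmt1*, the ubiquitous mitochondrial kinase, -0.29 with a standard error of 0.39 (edgeR adjusted p = 0.778).

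*Pygm* (ENSMUSG00000032648, chromosome 19, 6430569 to 6448538, plus strand) encodes muscle glycogen phosphorylase, which releases glucose units from glycogen. In WT its counts were 329, 417, 312, 363 and 584, and in mEC1dup/dup 214, 261, 283, 180 and 238. The genotypes did not overlap, and WT replicate 5 stood well above the other WT embryos. Over all genes tested, 2.75% had every mEC1dup/dup embryo below every WT embryo. The mean fell from 22.4 ± 5.92 to 12.9 ± 2.18 CPM (SD, n = 5 each). On the log2 scale the fold change was -0.80 with a standard error of 0.16 (edgeR adjusted p = 0.0228). Of the 10 fits without 1 embryo, 3 missed the threshold, namely those without WT replicate 2 (edgeR adjusted p = 0.0578), mEC1dup/dup replicate 2 (0.0515) and mEC1dup/dup replicate 4 (0.0530). The phosphorylases of other tissues were not called, with *Pygb*, the brain form, at -0.01 (SE 0.04) and *Pygl*, the liver form, at -0.35 (SE 0.11, edgeR adjusted p = 0.120) on the log2 scale.

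Of the 3 muscle isoforms within glycolysis, *Eno3* and *Pgam2* were called lower and *Pfkm* was not. *Eno3* (ENSMUSG00000060600, chromosome 11, 70546593 to 70553340, plus strand) encodes β-enolase, the muscle enzyme that forms phosphoenolpyruvate. It had 947, 844, 981, 1112 and 1344 counts in WT and 736, 656, 721, 583 and 886 in mEC1dup/dup. Only the highest mEC1dup/dup embryo, replicate 5, came within the WT range. Its log2 fold change was -0.57 with a standard error of 0.12 (edgeR adjusted p = 0.0292), and mean CPM went from 58.5 ± 10.4 to 39.4 ± 6.22 (SD, n = 5 each).

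*Pgam2* (ENSMUSG00000020475, chromosome 11, 5751636 to 5753760, minus strand), the muscle phosphoglycerate mutase of the step before enolase, had 503, 407, 421, 500 and 631 counts in WT. In mEC1dup/dup it had 373, 309, 303, 244 and 370. The genotypes did not overlap. The log2 fold change was -0.65 with a standard error of 0.14 (edgeR adjusted p = 0.0260). All of its exon bases lie antisense to *Dbnl* in GENCODE vM39, and *Dbnl*, at 150.2 CPM in WT, had a log2 fold change of -0.00 (edgeR adjusted p = 0.970). The strand setting of the counting is not given in the sources used here, so reads of the pair may not have been told apart. The same holds for smaller overlaps of other genes, with 26% of the exon bases of *Ckm*, 24% of *Eno3* and 30.6% of *Mb* antisense to other annotated genes, and 20.6% of *Pfkm* shared on its own strand.

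*Eno3* and *Pgam2* each kept their call in 5 of the 10 fits without 1 embryo. For *Eno3* the call was lost without WT replicate 1 (edgeR adjusted p = 0.0550), WT replicate 5 (0.0509) and mEC1dup/dup replicates 2 (0.0880), 3 (0.0814) and 4 (0.0655). The same 5 embryos mattered for *Pgam2*, with edgeR adjusted p of 0.0674, 0.0510, 0.0751, 0.0810 and 0.0530 in that order. Over the 10 fits the log2 fold change stayed between -0.65 and -0.47 for *Eno3* and between -0.73 and -0.55 for *Pgam2*.

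*Pfkm* (ENSMUSG00000033065), the muscle-type phosphofructokinase of the committed step of glycolysis, is also made in other tissues. Its counts were 1865, 1984, 2093, 2040 and 2151 in WT and 1810, 1994, 1882, 1880 and 1905 in mEC1dup/dup. The genotypes overlapped through mEC1dup/dup replicate 2. The log2 fold change was -0.13 with a standard error of 0.04 and a 95% interval from -0.20 to -0.05, and did not pass the test (edgeR adjusted p = 0.111). The partners *Eno1*, *Eno2*, *Pfkl*, *Pfkp* and *Pgam1* had log2 fold changes from -0.49 to -0.11, and none of the 5 was called by edgeR.

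*Ampd1* (ENSMUSG00000070385, chromosome 3, 102981272 to 103007037, plus strand) encodes the AMP deaminase of muscle, which turns AMP into IMP. It had 124, 149, 133, 109 and 188 counts in WT and 95, 54, 60, 35 and 90 in mEC1dup/dup. No mEC1dup/dup embryo reached the WT range. The log2 fold change was -1.09 with a standard error of 0.25 (edgeR adjusted p = 0.0337). This call held in only 3 of the 10 fits without 1 embryo. It was lost without WT replicates 1, 2, 3 and 5 (edgeR adjusted p = 0.0640, 0.0770, 0.0577 and 0.0755) and without mEC1dup/dup replicates 2, 3 and 4 (0.0973, 0.0995 and 0.0504). The forms of other tissues, *Ampd2* and *Ampd3*, were at -0.00 (SE 0.05) and -0.15 (SE 0.11) on the log2 scale, neither called.

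The muscle subunits of cytochrome c oxidase, the last complex of the respiratory chain, had lower point estimates but were not called. *Cox6a2* (ENSMUSG00000030785) had 157, 131, 154, 221 and 241 counts in WT and 152, 93, 104, 77 and 126 in mEC1dup/dup. Replicate 1 of mEC1dup/dup lay inside the WT range. The log2 fold change was -0.73 with a standard error of 0.21 (edgeR adjusted p = 0.0818). It passed without that embryo, at -0.89 (edgeR adjusted p = 0.0330), and by the DESeq2 Wald test on all embryos (adjusted p = 0.0121).

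*Cox8b* (ENSMUSG00000025488) was the lowest of the tested genes, at 18, 11, 10, 12 and 16 counts in WT and 4, 4, 7, 3 and 12 in mEC1dup/dup. The genotypes overlapped through mEC1dup/dup replicate 5. The log2 fold change was -1.17 with a standard error of 0.37 (edgeR adjusted p = 0.124), and its average log2 CPM of -0.62 is below the minimum for a call. In GENCODE vM39, 51.5% of its exon bases lie antisense to *Psmd13*. The partner subunits *Cox6a1* and *Cox8a* had log2 fold changes of -0.06 (SE 0.05) and -0.02 (SE 0.06).

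*Mb* (ENSMUSG00000018893), myoglobin, had 57, 30, 54, 65 and 96 counts in WT and 49, 62, 37, 37 and 56 in mEC1dup/dup. The lowest WT embryo lay below every mEC1dup/dup embryo. With a log2 fold change of -0.35, a standard error of 0.27 and a 95% interval from -0.88 to 0.17, a difference was not detectable (edgeR adjusted p = 0.576). *Cygb*, cytoglobin, a globin of fibroblasts set beside it as partner, was at -0.07 (SE 0.09).

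**Figure D2:**
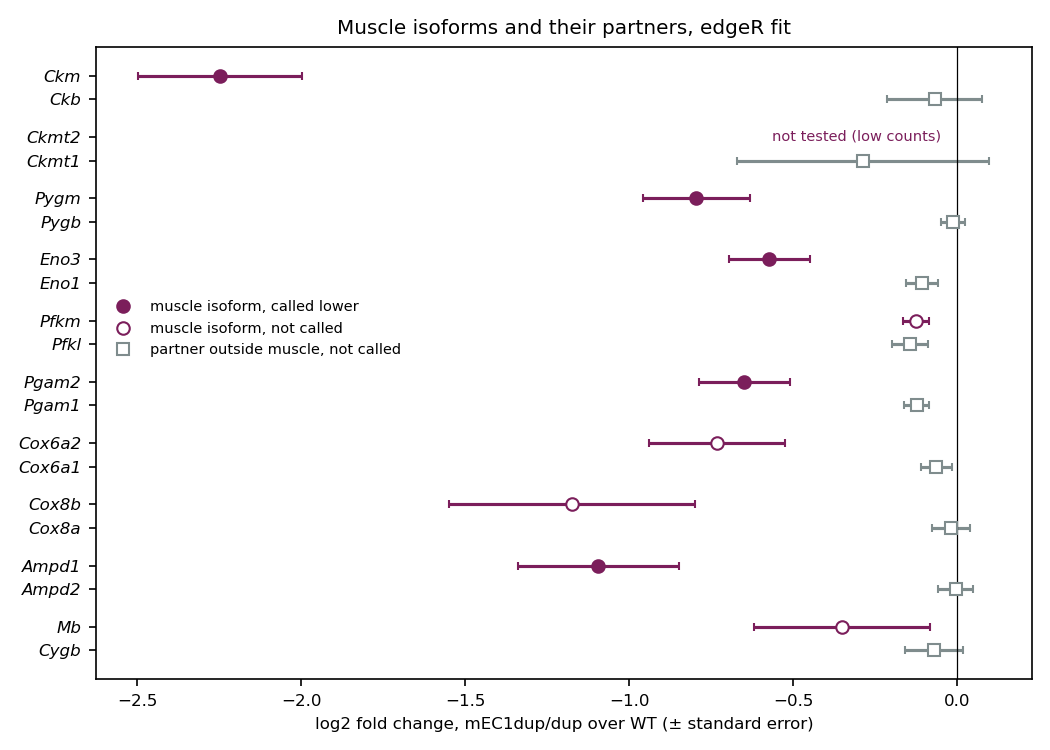
Log2 fold change of mEC1dup/dup over WT with its standard error (edgeR fit, 5 embryos each) for each muscle gene (circles) and its first partner outside muscle (squares), filled where the gene was called lower. *Ckm* stands at -2.25 and *Ckb* at -0.07; *Ckmt2* was not tested.

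The 14 partner genes gave the other side of each pair. All 14 were tested, 0 were called lower or higher by edgeR (5 of them at an unadjusted p under 0.05, against 16.2% of all genes tested), and 1 was called lower by the DESeq2 Wald test. Their log2 fold changes all lay below 0, from -0.49 to -0.00 with a median of -0.11. The ratio of a muscle gene to its partner within each embryo is a description and was not tested. *Ckm* stood at 38.7% of the *Ckb* level in WT and at 7.79% in mEC1dup/dup (geometric means of 5 embryos, from log2 CPM), with no overlap between genotypes. *Pygm* over *Pygb* went from 11.4% to 6.75% and *Ampd1* over *Ampd2* from 11.2% to 5.09%, again with no overlap. In the remaining 11 of the 14 pairs the genotypes overlapped, among them *Pfkm* over *Pfkl*, at 51.0% in WT and 51.7% in mEC1dup/dup. *Ckm*, *Pygm* and *Ampd1* were already below every WT embryo in CPM itself, as were 2.75% of all genes tested. Such a share over all genes was not computed for ratios.

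**Figure D3:**
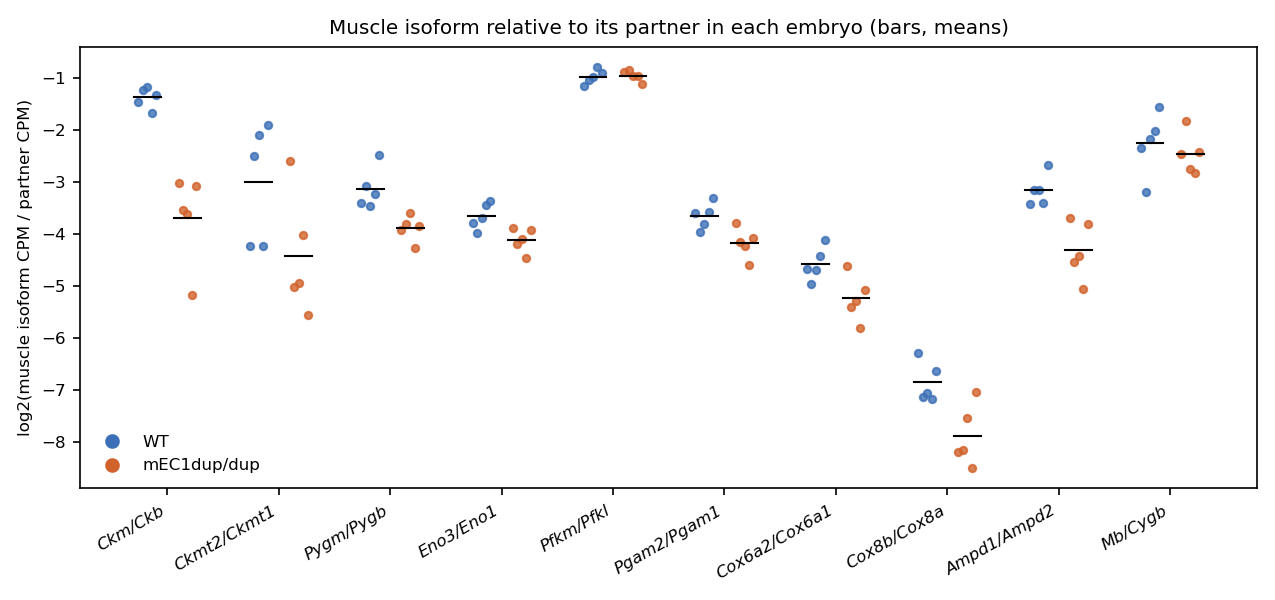
Log2 ratio of the CPM of each muscle gene to that of its first partner in each embryo, WT in blue and mEC1dup/dup in orange, with bars at the mean of 5 embryos. The genotypes do not overlap for *Ckm*/*Ckb*, *Pygm*/*Pygb* and *Ampd1*/*Ampd2*, and lie together for *Pfkm*/*Pfkl*.

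Per kilobase of coding length, the order of levels in WT was led by *Pfkm* at 48.5 ± 2.07 CPM per kb and *Eno3* at 44.9 ± 7.95 (SD, n = 5). *Pgam2* (36.3), *Cox6a2* (34.8) and *Ckm* (24.3) came next, then *Pygm* (8.87), *Mb* (5.29), *Cox8b* (3.58), *Ampd1* (3.52) and *Ckmt2* (0.506). Neighbours in this order had overlapping embryo ranges except *Ckm* with *Pygm* and *Ampd1* with *Ckmt2*. The order is by mean, and neighbours were not compared within single embryos. It also depends on the length used, since coding length leaves out other exon bases (*Cox6a2* has 291 coding bases and 684 exon bases). In plain CPM *Ckm* (27.8) stood above *Cox6a2* (10.1) in WT. In mEC1dup/dup the first 4 places were held by the same genes in the same order, from 44.5 CPM per kb for *Pfkm* to 20.9 for *Cox6a2*. *Ckm* came next again, but at 5.13 it was level with *Pygm* at 5.11. The partners were at much higher levels in this tissue for several enzymes, with *Eno1* at 559, *Pgam1* at 449 and *Cox6a1* at 711 CPM per kb in WT.

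Most other genes of muscle energy metabolism were not called. Of 33 such genes, 31 were tested, 3 were lower and 1 was higher by edgeR (1.81% and 0.834% over all genes tested), with 23 below 0 and a median log2 fold change of -0.10. Their range was wide, from -1.36 to 0.22. At an unadjusted p under 0.05, 13 of the 31 differed, against 16.2% of all genes tested. The lower genes were *Ppp1r3c*, a glycogen-targeting subunit of protein phosphatase 1 (-0.40, SE 0.07, edgeR adjusted p = 0.00979), the glycolytic aldolase *Aldoa* (-0.27, SE 0.05, edgeR adjusted p = 0.0139) and the lactate dehydrogenase subunit *Ldha* (-0.21, SE 0.05, edgeR adjusted p = 0.0360). *Ldhb*, the lactate dehydrogenase subunit typical of heart, was higher (0.22, SE 0.05, edgeR adjusted p = 0.0227). *Fbp2*, the fructose bisphosphatase of muscle, had a log2 fold change of -1.36 (SE 0.32, edgeR adjusted p = 0.0432) at 10 to 25 counts in WT and 4 to 11 in mEC1dup/dup, and its average log2 CPM of -0.29 was too low for a call. *Ppp1r3a* (-1.10, SE 0.33, edgeR adjusted p = 0.103), *Fabp3* (-0.56, SE 0.19, 0.151) and *Ak1* (-0.43, SE 0.13, 0.0971) had lower point estimates without a call. *Slc2a4*, the insulin-responsive glucose transporter, and *Gys1*, glycogen synthase of muscle, were at 0.15 (edgeR adjusted p = 0.303) and -0.07 (0.517).

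Sarcomere genes served as a measure of differentiated muscle in each dissection. Of 20, 19 were tested and 9 were lower by edgeR (*Acta1*, *Myh3*, *Myh7*, *Myh8*, *Mybpc1*, *Neb*, *Ttn*, *Tnni2* and *Tnnt3*), against 1.81% of all genes tested, with a median log2 fold change of -0.55 and a range from -1.06 to -0.15. At an unadjusted p under 0.05, 16 of the 19 differed, against 16.2% of all genes tested. *Ckm*, at -2.25, lay below the range of these 19. Outside the list, and named after their values were seen, the myosin light chains *Myl2* (-1.92, SE 0.31, edgeR adjusted p = 0.00809) and *Myl3* (-1.36, SE 0.23, edgeR adjusted p = 0.0099) were also called lower, with fold changes below those of the list. The mean log2 CPM of the 20 genes, taken as a sarcomere score, was 6.17 to 6.77 in WT and 5.47 to 6.13 in mEC1dup/dup. *Ckm* relative to this score was 1.82 lower on the log2 scale in mEC1dup/dup with no overlap between genotypes, whereas *Eno3* relative to the score differed by -0.04 and *Pgam2* by -0.11, both overlapping. *Ampd1* (-0.61) and *Pfkm* (0.41) also overlapped on this scale. *Ckmt2*, at low counts, was at -1.22 with overlap. A lack of overlap was shared by *Myf6* (-0.95), which is not part of the score, and by *Acta1* (-0.36) and *Tnnt3* (-0.55), which are. *Myog*, also not part of the score, did not overlap in the other direction (0.66). The share of all genes without overlap on this scale was not computed.

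With the sarcomere score as a covariate in the edgeR fit, 1 of the 9 genes was called lower. That gene was *Ckm*, at -1.45 with a standard error of 0.25 (edgeR adjusted p = 0.0405). The other 4 genes that were lower without the covariate had log2 fold changes between -0.37 and -0.09 with it. *Cox6a2* and *Mb* changed sign, to 0.03 (edgeR adjusted p = 0.977) and 0.44 (0.717). The score was itself lower in mEC1dup/dup, so part of any difference between genotypes is carried by the covariate.

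Of the 8 regulators of muscle differentiation listed, 1 was lower and 0 were higher by edgeR, against 1.81% and 0.834% of all genes tested. *Myf6*, a myogenic factor of later fibres, had 67, 46, 66, 79 and 85 counts in WT and 33, 18, 20, 17 and 33 in mEC1dup/dup, without overlap. Its log2 fold change was -1.52 with a standard error of 0.24 (edgeR adjusted p = 0.00804). It was not called with a covariate. The log2 fold change was -1.19 with *Xist* (edgeR adjusted p = 0.388), -1.58 with the globin share (0.898) and -0.80 with the sarcomere score (0.292). Without a covariate, *Myod1* and *Myog*, which act earlier, were at 0.09 (SE 0.12, edgeR adjusted p = 0.786) and 0.12 (SE 0.14, edgeR adjusted p = 0.745). Their 95% intervals ran from -0.15 to 0.33 and from -0.16 to 0.40. With the sarcomere score as a covariate both passed as higher, at 0.57 (edgeR adjusted p = 0.0183) and 0.70 (0.0053). That score was itself lower in mEC1dup/dup. With *Xist* or the globin share as covariate neither was called.

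**Figure D4:**
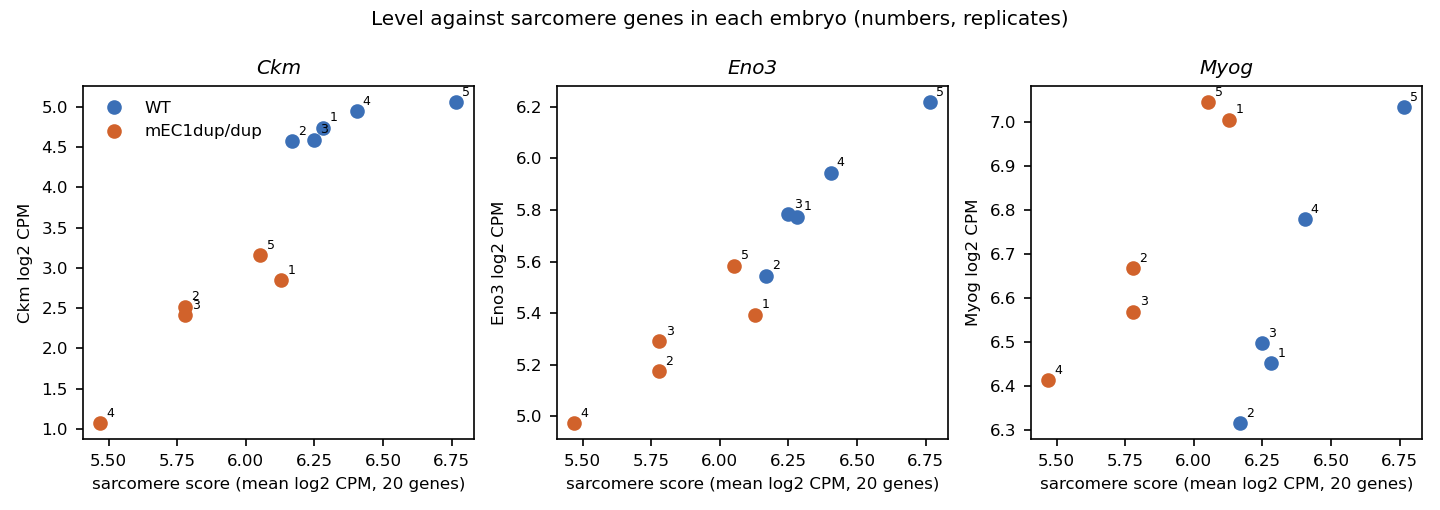
Log2 CPM of *Ckm*, *Eno3* and *Myog* against the sarcomere score (mean log2 CPM of 20 sarcomere genes) in each embryo, WT in blue and mEC1dup/dup in orange, numbered by replicate. *Eno3* runs along with the score over both genotypes, *Ckm* in mEC1dup/dup lies below the WT embryos by more than the score does, and *Myog* spans a like range in both genotypes while the scores of the genotypes do not overlap.

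Embryos of one genotype varied together in these genes. After removing genotype means, the 36 pairs among the 9 tested genes had a median Pearson r of 0.53 over 10 embryos, from -0.19 (*Pfkm* with *Cox8b*) to 0.91 (*Pgam2* with *Cox6a2*), and 35 were above 0. The mean deviation of the 9 followed that of the sarcomere genes with r = 0.965, and that of neuron markers with r = 0.169. *Pgam2* (0.942) and *Eno3* (0.926) followed the mean of the other genes most closely, and *Pfkm* (0.333) least. The 14 partners had a median r of 0.064 with that mean. These correlations are descriptions, since the genes of one embryo share its dissection and library.

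The highest WT and the lowest mEC1dup/dup values came mostly from 2 embryos. WT replicate 5 was the highest WT embryo for 9 of the 10 genes, and mEC1dup/dup replicate 4 the lowest mEC1dup/dup embryo for 9 of 10. They also had the highest and the lowest sarcomere score, 6.77 and 5.47. Outside the lists, the genes whose deviations followed the mean of the 9 most closely were *Camk2a* (r = 0.977), *Synpo2l* (0.976), *Sypl2* (0.972), *Shox2* (0.970) and *Cacna1s* (0.966), of which *Sypl2* was lower by edgeR (-0.84, SE 0.18, adjusted p = 0.0246).

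**Figure D5:**
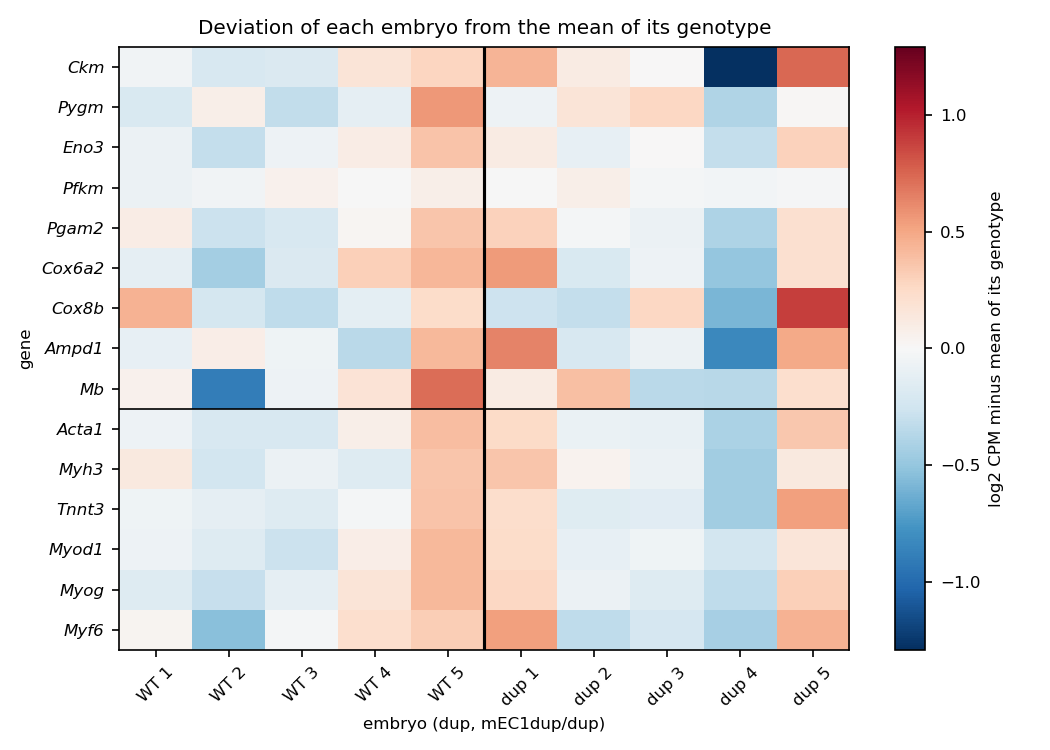
Deviation of log2 CPM from the mean of its genotype in each embryo (colour scale, red above and blue below), for the 9 tested genes of the group above the line and 6 sarcomere and myogenic genes below it. The WT replicate 5 column is red and the mEC1dup/dup replicate 4 column blue for nearly every gene, and *Pfkm* is pale throughout.

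Markers of other tissues that make some of these proteins were measured in the same libraries. Of 6 cardiac markers, *Myl7* and *Nppa* had at most 3 counts in every embryo, and the list summed to 5.32 to 8.64 CPM in WT and 5.38 to 7.69 in mEC1dup/dup. Its 3 tested members went both ways and none was called, with *Nkx2-5* at 0.85 (SE 0.26, edgeR adjusted p = 0.111) and no overlap between genotypes, *Myh6* at -0.61 (SE 0.22, edgeR adjusted p = 0.176) and *Tnni3* at -0.29 (SE 0.18, edgeR adjusted p = 0.477). Of 5 brown fat markers, *Ucp1*, *Elovl3*, *Adipoq* and *Plin1* had at most 3 counts in every embryo, and the list summed to 0.449 to 1.88 CPM in WT and 0.433 to 0.815 in mEC1dup/dup. The 4 smooth muscle markers, of which *Tagln* had only 1 to 10 counts per embryo, summed to 217.8 to 303.8 CPM in WT and 235.8 to 312.5 in mEC1dup/dup. *Acta2* made up most of that sum, at a log2 fold change of 0.12 (edgeR adjusted p = 0.649), while *Cnn1*, a calponin of smooth muscle, was at -0.65 (SE 0.23, edgeR adjusted p = 0.163) with no overlap between genotypes. In GENCODE vM39, 66.7% of the exon bases of *Tagln* lie antisense to other annotated genes, so its low counts may not reflect its level.

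Markers of the other pinna tissues were 5 genes, of which 2 were lower and 0 higher by edgeR, against 1.81% and 0.834% of all genes tested. Both lower genes were keratins of basal epidermis, *Krt5* at -0.69 (SE 0.15, edgeR adjusted p = 0.0257) and *Krt14* at -0.64 (SE 0.14, edgeR adjusted p = 0.0296). *Prrx1* and *Twist2* of mesenchyme and *Col2a1* of cartilage had log2 fold changes of 0.07, -0.18 and -0.30 and were not called. The 5 genes summed to 3954 to 6401 CPM in WT and 2545 to 5119 in mEC1dup/dup. The keratins were thus lower in the same genotype as the muscle genes, and the part of tissue composition in the result was not tested.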

How the data were processed

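Bulk RNA-seq of micro-dissected E14.5 pinna prominences was analysed from 5 WT and 5 mEC1dup/dup embryos. The authors deposited 1 table of raw counts per gene (53465 Ensembl genes), made from trimmed reads with STAR and featureCounts on GRCm39 (fastp and FastQC are also named in the submitters' processing notes). Gene symbols came from GENCODE vM39, which matched 49355 genes. The annotation version behind the counts is not given in the sources used here, and the sources name different library kits, TruSeq and NEBNext. Counts were scaled by TMM, filtered with filterByExpr and tested with edgeR 4.0.16 (quasi-likelihood test, genotype only, R 4.3.3), with Benjamini-Hochberg adjustment over 16426 genes. A gene was called where its adjusted p was no larger than 0.05 and its mean level was 1 or more in log2 CPM. Values in CPM are after TMM, log2 CPM used a prior count of 2, and levels per kb used coding length.

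The 10 genes, the comparison lists and the rule for named genes were chosen with earlier results of these data known. All 10 were named, with their partners, those called in each list with at most 4 more, and the 5 genes outside the lists that varied most like them. Outside this rule, *Myl2*, *Myl3*, *Ppp1r3a*, *Fabp3* and *Ak1* were named after their values were seen, and 1 more cardiac marker was named. On simulated counts with 200 of 16250 genes changed by a log2 of 1, the test recovered 93%, with 8 false calls among 194. Replicates of a genotype differed by more than sampling noise (a chi-square of at least 2.56 for each degree of freedom), so each counted as 1 sample. DESeq2 1.42.0, limma 3.58.1 (voom), other filters, covariates and leaving out each embryo were alternatives.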

Additional observations from a re-analysis of the deposited data

Results flagged for a closer look

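For 2 of the 20 groups of 5 values checked (10 genes, 2 genotypes), 1 embryo stood apart from the other 4 of its genotype by Dixon's test, which chance does in about 1 of 20 groups. WT replicate 5 had 1.44 CPM of *Ckmt2*, against 0.332 to 0.554 in the other WT embryos. mEC1dup/dup replicate 2 had 109.9 CPM of *Pfkm*, against 101.4 to 103.4 in the other mEC1dup/dup embryos.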

How the results depend on the processing

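The 5 genes called lower were also the 5 called with DESeq2 size factors, limma-voom, no filter on low counts, at least 10 counts in every embryo, no minimum level, and the replicate number as a block. The DESeq2 Wald test added *Cox6a2*. An adjusted p of at most 0.01 left 1 (*Ckm*), as did the sarcomere score as a covariate, and the *Xist* and globin covariates left 0 and 0. Leaving out 1 embryo gave 1 to 6. Under covariates *Cox6a2* turned to 0.026 and *Mb* to 0.44 (sarcomere score), and *Cox8b* to 0.16 (embryonic share of globin counts). The causes were not tested. The covariates share much of their spread with genotype. *Ckmt2* did not pass the filter on low counts, and *Cox8b* lay below the minimum level for a call.

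Over all genes, the counts lower and higher (297 and 137) became 509 and 321 by the DESeq2 Wald test, 62 and 16 at an adjusted p of at most 0.01, 1 and 2 with *Xist*, 0 and 0 with the globin share and 22 and 15 with the sarcomere score as a covariate. Without 1 embryo they ran from 120 to 476 lower and from 34 to 179 higher. Sarcomere genes lower (9) became 5 at an adjusted p of at most 0.01 and 0 with each of the 3 covariates. Other energy genes lower (3) became 6 by the DESeq2 Wald test, 1 at an adjusted p of at most 0.01, 0 with each covariate and, without 1 embryo, 1 to 4. Isoform partners lower (0) became 1 by the DESeq2 Wald test and, without 1 embryo, 0 to 2.

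Same-numbered embryos of the genotypes had a mean correlation of deviations of 0.162 (-0.0558 to 0.345), against -0.0403 for other pairs. Each embryo's best match was its own number for 2 of 5 WT and 2 of 5 mEC1dup/dup embryos. The paper describes its mouse replicates as siblings taken from separate litters, without linking litters to replicate numbers. These values do not settle whether the numbers pair samples, and the main fit did not use them. With the replicate block 487 genes were lower, as were 6 other energy genes and 1 isoform partner, and no call among the 10 genes changed.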
